A study of Mus musculus with 6 samples.

Results

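The 10 genes studied here are switched on by type I interferon and were followed tumor by tumor in mammary tumors of NeuT/ATTAC mice: Ifit1, Ifit3, Isg15, Rsad2, Cmpk2, Oas2, Oasl2, Mx1, Irf7 and Zbp1. They were chosen by name, as the gene IDs that the mouse GRCm38 annotation (GENCODE M21) assigns to these symbols, and are 10 of the 54532 gene IDs with a value in each tumor. The rule reads symbols, not measured levels, but the symbols were listed with earlier results of these data known. All 10 were above 0 in all 6 tumors and passed the filter on low values. Each of the 10 had a lower mean in the anti-PD-1 group than in the IgG group, but none of these differences passed the test across all genes. Cmpk2, Zbp1 and Rsad2 had the largest differences (log2 fold changes of -0.91, -0.69 and -0.57). Within the anti-PD-1 group the genes moved together from tumor to tumor: anti-PD-1 replicate 2 held 1.49 to 3.82 times the level of replicate 1 and 1.42 to 3.55 times that of replicate 3.

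Type I interferons are secreted cytokines, mostly made after a cell senses viral, bacterial or misplaced self nucleic acid. They bind the receptor IFNAR1/IFNAR2, whose kinases JAK1 and TYK2 signal to a transcription factor complex that holds STAT2 and IRF9. The complex binds a short DNA element, the interferon-stimulated response element, in the promoters of interferon-stimulated genes, whose proteins block viral replication, modify other proteins and amplify the response. Type III interferons reach the same complex through a receptor found mainly on epithelium, and interferon-gamma acts through a receptor of its own.

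RNAseq was performed on 6 tumors, 3 from IgG-treated and 3 from anti-PD-1-treated mice, to follow the tumor's response to a murine anti-PD-1 mAb (an antibody that blocks the T cell checkpoint receptor PD-1). All mice of both groups were NeuT/ATTAC: they carry MMTV-NeuT, in which the MMTV promoter drives Erbb2 in mammary epithelium, and the FAT-ATTAC transgene, brought from C57BL/6 into the FVB strain, with which AP20187 ablates fat and induces mammary fibrosis. From 6 weeks of age both groups were injected with AP20187 at 0.4 mg/kg and, from 8 weeks of age, with 100 μg of antibody 2 times per week, which was isotype-matched IgG in 1 group and anti-PD-1 in the other, so there was no group without fibrosis induction. The labels give each sample as a tumor without naming the mice, and a legend of the study describes pooled RNA, so p-values measure the spread between these 6 samples.

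The recovered depth was 21075641 to 23852764 reads per tumor, at which the 10 genes were covered by between 254 reads (Mx1, anti-PD-1 replicate 1) and 5061 reads (Irf7, IgG replicate 1). The 7 markers of mammary epithelium summed to between 1953 and 3679 FPKM by tumor (Epcam between 690 and 1149.9 FPKM). Of the 7, 4 had a higher and 3 a lower mean in the anti-PD-1 group, with log2 fold changes from -2.03 to 0.43. At an unadjusted p under 0.05 by limma, 1 was lower and 0 higher (6.05% and 6.22% of all tested genes). The defining leukocyte marker Ptprc lay between 1.21 and 2.22 FPKM. Skeletal muscle RNA (Acta1, Myh4, Ckm, Tnnt3 and Myl1) differed between tumors, with a summed level of 123, 69.0 and 128 FPKM in IgG replicate 2 and anti-PD-1 replicates 1 and 2 and of at most 4.08 FPKM in the other tumors. Genes of chromosome 4 had a median log2 fold change of -0.40, with 83.6% of 926 tested genes lower in the anti-PD-1 group, and those of chromosome 9 had -0.36 and 82.3% of 798. Of the 10 genes only Isg15 lies on either chromosome (chromosome 4).

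The genes lie on 7 chromosomes, and 2 pairs are neighbors. Rsad2 (chr12:26442746-26456452, minus strand) and Cmpk2 (chr12:26469204-26479837, plus strand) are transcribed away from each other from starts 12752 bases apart. Ifit1 (chr19:34640871-34650009) and Ifit3 (chr19:34583531-34588731) belong to the Ifit cluster, with starts 57340 bases apart on the plus strand. RefSeq promoter windows of GRCm38.p6, from 250 bases before to 50 bases after the start, were matched by symbol to 7 of the 10 genes: Ifit1, Ifit3, Isg15, Rsad2, Cmpk2, Oasl2 and Irf7. Oas2, Mx1 and Zbp1 were not matched. The core of the interferon-stimulated response element was searched as GAAANNGAAA and, for the other strand, TTTCNNTTTC, where N is any base. The windows of 4 of the 7 genes (57.1%) held at least 1 match, against 1131 of all 32851 windows (3.44%) and 19 of the 52 windows of other interferon-stimulated genes (36.5%). The windows of interferon-gamma response genes held a match about as often as those of the 10 genes (10 of 17, 58.8%). These 4 windows are shown because they carry the letters through which the pathway is known to act, with the matches in capitals, 5′ to 3′ on the strand of the gene.
Ifit1, chr19:34640639-34640938, plus strand: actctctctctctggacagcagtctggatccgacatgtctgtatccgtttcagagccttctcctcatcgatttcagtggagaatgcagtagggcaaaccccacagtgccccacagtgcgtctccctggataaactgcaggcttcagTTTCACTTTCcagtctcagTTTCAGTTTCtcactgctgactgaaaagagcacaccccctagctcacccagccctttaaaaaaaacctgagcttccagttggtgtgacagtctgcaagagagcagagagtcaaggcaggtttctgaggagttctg
Ifit3, chr19:34583279-34583578, plus strand: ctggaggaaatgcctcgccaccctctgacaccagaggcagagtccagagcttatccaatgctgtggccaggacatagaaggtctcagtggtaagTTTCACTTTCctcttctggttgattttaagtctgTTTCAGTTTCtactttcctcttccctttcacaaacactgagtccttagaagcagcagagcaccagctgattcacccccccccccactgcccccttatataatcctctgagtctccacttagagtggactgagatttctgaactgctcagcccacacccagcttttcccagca
Isg15, chr4:156200769-156201068, minus strand: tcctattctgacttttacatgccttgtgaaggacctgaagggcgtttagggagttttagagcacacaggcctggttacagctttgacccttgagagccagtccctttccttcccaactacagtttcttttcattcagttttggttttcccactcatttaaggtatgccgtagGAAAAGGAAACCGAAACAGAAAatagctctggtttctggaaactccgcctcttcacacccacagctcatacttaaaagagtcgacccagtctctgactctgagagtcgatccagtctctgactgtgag
Rsad2, chr12:26456403-26456702, minus strand: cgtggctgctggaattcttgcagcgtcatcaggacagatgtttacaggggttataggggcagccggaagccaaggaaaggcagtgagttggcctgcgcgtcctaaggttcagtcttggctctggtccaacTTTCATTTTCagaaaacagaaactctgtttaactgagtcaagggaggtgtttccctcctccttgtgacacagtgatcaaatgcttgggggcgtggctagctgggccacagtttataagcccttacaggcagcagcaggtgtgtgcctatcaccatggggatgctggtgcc

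Counted from the RefSeq start on which each window is built, which can differ by some bases from the GENCODE start given above, the Ifit1 matches (TTTCACTTTC and TTTCAGTTTC) ran from -104 to -95 and from -85 to -76. Ifit3 held the same 2 matched sequences farther out, from -156 to -147 and from -122 to -113. In Isg15, 3 matches (GAAAAGGAAA, GAAACCGAAA and GAAACAGAAA) overlapped each other between -78 and -57, so that they form 1 run of capitals. The Rsad2 window had 1 match (TTTCATTTTC) from -120 to -111. The windows of Cmpk2, Oasl2 and Irf7 did not hold these letters, which says nothing of sequence outside them. A match is a description of the letters, and binding was not measured.

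FPKM (fragments per kilobase of exon, scaled to library size) is a level per length, so the 10 genes can be ranked within a tumor. Isg15, a ubiquitin-like protein that is attached to other proteins and also secreted, had the highest level in all 6 tumors, and Irf7, the transcription factor that turns on interferon alpha genes, was next in all 6. Ifit1, Ifit3, Oasl2 and Zbp1 took ranks 3 to 6 in every tumor, with Ifit1 ranked 3 in 5 of 6 tumors. Rsad2, Cmpk2, Oas2 and Mx1 took ranks 7 to 10. Within both sets of 4 the order changed between tumors, but Ifit1 was above Ifit3 and Zbp1, and Oas2 above Mx1, in all 6. Values of a group are given from replicate 1 to replicate 3. Added up over the 10 genes, the IgG tumors held 254, 275 and 181 FPKM and the anti-PD-1 tumors 146, 299 and 119 FPKM. The highest and the lowest sum were thus both in the anti-PD-1 group, and the IgG tumors lay between them.

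**Figure D1:**
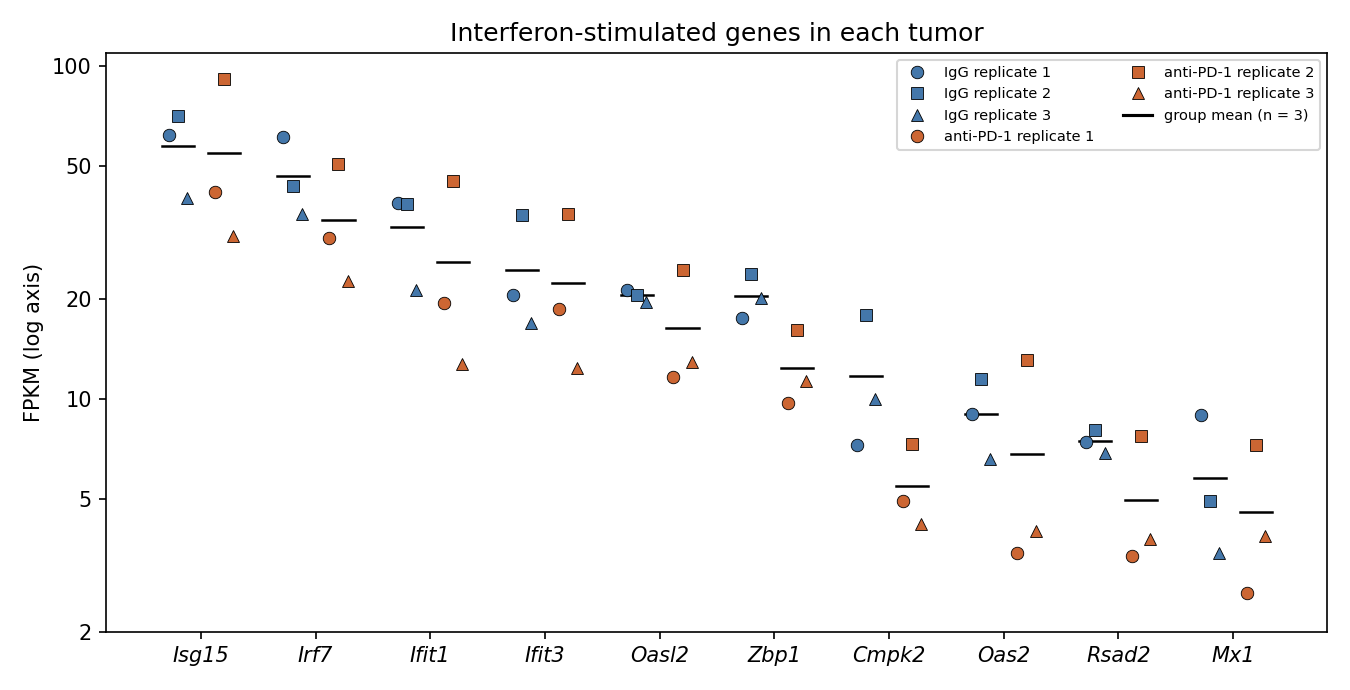
Level of the 10 genes in each tumor (FPKM, log axis), ordered by mean level. Points are single tumors, with color for the group and shape for the replicate, and lines are group means (n = 3). Anti-PD-1 replicate 2 (orange squares) lay above the other anti-PD-1 tumors for every gene and among the IgG tumors or above them for all but Zbp1.

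Ifit1 and Ifit3 encode antiviral proteins with tetratricopeptide repeats, of which IFIT1 recognises RNA that lacks the methylation of a cellular cap and IFIT3 stabilises it. Ifit1 stood at 38.7, 38.6 and 21.3 FPKM in the IgG tumors and at 19.4, 45.1 and 12.7 FPKM in the anti-PD-1 tumors. The groups overlapped across their whole range, with the 1 highest tumor and the 2 lowest tumors all in the anti-PD-1 group, and the log2 fold change of anti-PD-1 against IgG was -0.47 (SE 0.45, limma adjusted p = 0.694, exact permutation p = 0.6). Ifit3 read 20.5, 35.5 and 17.0 FPKM with IgG and 18.6, 35.9 and 12.4 FPKM with anti-PD-1. Its replicates 2 were alike in both groups, and its log2 fold change was -0.18 (SE 0.41, limma adjusted p = 0.882). The near copies Ifit3b and Ifit1bl2 share sequence with these genes. All of them came out as whole reads, so no division of reads in fractions was seen. Whether shared reads were dropped or given whole to 1 gene cannot be seen in the values.

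Isg15 was at 62.0, 70.5 and 40.1 FPKM in the IgG tumors and at 41.7, 91.4 and 30.9 FPKM in the anti-PD-1 tumors. The SD of 32.3 FPKM among anti-PD-1 tumors far exceeded the difference between the means of 57.5 and 54.6 FPKM, and the log2 fold change was -0.18 (SE 0.41, limma adjusted p = 0.879, exact permutation p = 0.9). The 4 genes for the attachment and removal of ISG15 were on a list of other interferon-stimulated genes and are named after their values were seen. They were Uba7 (the activating enzyme), Ube2l6 (the conjugating enzyme), Herc6 (the ligase in mice) and Usp18 (the protease that removes ISG15), with log2 fold changes of -0.41, -0.39, -0.22 and -0.32 and limma adjusted p values of 0.618, 0.468, 0.761 and 0.779. Like Isg15, Usp18 was far higher in anti-PD-1 replicate 2 (21.2 FPKM) than in replicates 1 and 3 (11.7 and 6.73 FPKM). Ube2l6 did not follow this order and had its lowest level, 10.3 FPKM, in anti-PD-1 replicate 2. Uba7 lies on chromosome 9.

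Rsad2 (viperin) makes a chain-terminating nucleotide from CTP, and the kinase CMPK2 encoded beside it phosphorylates CMP and UMP. Rsad2 held 7.42, 8.08 and 6.90 FPKM in the IgG tumors and 3.38, 7.75 and 3.81 FPKM in the anti-PD-1 tumors. The IgG tumors were close together (mean 7.47 ± 0.594 FPKM, SD, n = 3), anti-PD-1 replicate 2 was inside their range, and the other anti-PD-1 tumors were well below it. The log2 fold change of Rsad2 was -0.57 (SE 0.27, unadjusted p = 0.0754, limma adjusted p = 0.440, exact permutation p = 0.3). Cmpk2 gave 7.29, 17.9 and 9.98 FPKM with IgG and 4.93, 7.35 and 4.21 FPKM with anti-PD-1. Here anti-PD-1 replicate 2 was at the level of the lowest IgG tumor, and the groups overlapped only through these 2 tumors. Cmpk2 had the largest log2 fold change of the 10 genes, -0.91 (SE 0.33, 95% interval -1.68 to -0.13), with an unadjusted p of 0.0273 and a limma adjusted p of 0.370. The neighbors thus differed within the IgG group, where Cmpk2 varied 2.46-fold from the lowest to the highest tumor and Rsad2 1.17-fold.

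Oas2 and Oasl2 belong to the oligoadenylate synthetase family, which is activated by double-stranded RNA and through RNase L degrades RNA. Oas2 measured 8.99, 11.4 and 6.61 FPKM in the IgG tumors and 3.44, 13.1 and 4.01 FPKM in the anti-PD-1 tumors. Anti-PD-1 replicate 2 was the highest of the 6 tumors and 3.82 times replicate 1, the widest gap within a group among the 10 genes, and the log2 fold change was -0.53 (SE 0.44, limma adjusted p = 0.645). Oasl2 came to 21.3, 20.5 and 19.5 FPKM with IgG and 11.6, 24.4 and 12.9 FPKM with anti-PD-1. It was the steadiest of the 10 genes in the IgG group (20.4 ± 0.877 FPKM, SD, n = 3), against 16.3 ± 7.06 FPKM (SD, n = 3) in the anti-PD-1 group. Its anti-PD-1 tumors fell on both sides of the IgG range and none lay inside it, so that the log2 fold change of -0.38 (SE 0.27, limma adjusted p = 0.598) averages tumors that differed in opposite directions. Oas2 overlaps Gm43068 on the other strand, and whether the counting used strand is not given in the sources used here.

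Mx1 encodes a dynamin-like GTPase whose intact form blocks influenza virus. Whether these mice carry an intact allele is not given in the sources used here. Mx1 registered 8.94, 4.94 and 3.44 FPKM in the IgG tumors and 2.62, 7.27 and 3.87 FPKM in the anti-PD-1 tumors. It varied 2.60-fold among IgG tumors, the widest IgG range of the 10 genes, and its highest level was in IgG replicate 1. The log2 fold change was -0.28 (SE 0.39, limma adjusted p = 0.799). Irf7 reached 60.9, 43.5 and 35.8 FPKM with IgG and 30.3, 50.7 and 22.5 FPKM with anti-PD-1. Anti-PD-1 replicate 2 lay inside the IgG range and the other anti-PD-1 tumors below it, and the log2 fold change was -0.46 (SE 0.32, limma adjusted p = 0.587). Irf7 overlaps Phrf1 on the other strand.

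Zbp1 senses left-handed nucleic acid and can trigger necroptosis through RIPK3 and MLKL. It had 17.4, 23.8 and 20.1 FPKM in the IgG tumors and 9.72, 16.1 and 11.3 FPKM in the anti-PD-1 tumors. It was the only 1 of the 10 genes whose groups did not overlap, although anti-PD-1 replicate 2 was again the highest of its group and the closest to the IgG tumors. Non-overlap with the anti-PD-1 group lower occurred in 8.75% of all tested genes. The means were 20.4 ± 3.18 and 12.4 ± 3.30 FPKM (SD, n = 3 each), and the log2 fold change was -0.69 (SE 0.22, 95% interval -1.20 to -0.18, unadjusted p = 0.0146, limma adjusted p = 0.355). Its exact permutation p was 0.1, the smallest that 3 against 3 can give. Its necroptosis partners Ripk1, Ripk3 and Mlkl, named after their values were seen, had log2 fold changes of -0.042, 0.20 and 0.33 and limma adjusted p values of 0.931, 0.806 and 0.499. Mlkl differed between the groups in the other direction than Zbp1, with 10.7, 12.8 and 12.6 FPKM in the IgG tumors and 13.3, 13.8 and 19.3 FPKM in the anti-PD-1 tumors.

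Over the 10 genes the median log2 fold change was -0.47, against 0.0072 over all 15070 tested genes, of which 49.2% had a lower mean in the anti-PD-1 group. Cmpk2 and Zbp1 were lower at an unadjusted p under 0.05, a threshold that 6.05% of tested genes passed in this direction. None passed an adjusted p of 0.05, and neither did any other gene by limma (0 of 15070) or by voom on the recovered reads (0 of 14387), while 911 genes were lower and 937 higher at an unadjusted p under 0.05 by limma. The 95% intervals of the other 8 genes included 0 and reached down to -1.57 (Oas2) and up to 0.79 (Ifit3). The 10 genes share their tumors and their regulators, so their common direction is not 10 independent observations. They were also chosen with earlier results of these data known. Since the tissue was sequenced in bulk, fewer expressing cells and less RNA per cell cannot be told apart.

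The extremes fell in few tumors. The lowest level of a gene was in anti-PD-1 replicate 1 for 5 of the 10 genes and in anti-PD-1 replicate 3 for the other 5, where 13.9% and 16.2% of all tested genes had their lowest tumor. The highest level was in anti-PD-1 replicate 2 for 5 genes, in IgG replicate 2 for 3 and in IgG replicate 1 for 2, against 19.3%, 20.6% and 9.81% of all tested genes. Centered on each gene's mean over the 6 tumors, the median log2 level of the 10 genes was 0.26, 0.47 and -0.11 for the IgG tumors and -0.56, 0.47 and -0.72 for the anti-PD-1 tumors.

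When anti-PD-1 replicate 2 was left out, the median fold change over the 10 genes was -0.82 on the log2 scale, and 7 were lower at an unadjusted p under 0.05 (Rsad2, Zbp1, Oas2, Oasl2, Cmpk2, Ifit1 and Irf7), against 3.96% of tested genes. Their limma adjusted p values were then between 0.488 and 0.524, so none was called. The omission of a tumor for its values favors a difference, and it is 1 of 6 such omissions. None of the 10 genes was under an unadjusted p of 0.05 without IgG replicate 2 (2.98% of tested genes lower) or without anti-PD-1 replicate 1 (5.21%). Only Zbp1 was when anti-PD-1 replicate 3 was left out (3.42%), and Cmpk2 and Zbp1 were when IgG replicate 1 (9.39%) or IgG replicate 3 (5.06%) was. Rsad2, Cmpk2, Oas2, Oasl2, Irf7, Zbp1 and Ifit1 had a lower mean in the anti-PD-1 group under all 6 omissions. Ifit3 turned to 0.12 without IgG replicate 2 and to 0.16 without anti-PD-1 replicate 3, Isg15 to 0.14 without anti-PD-1 replicate 3, and Mx1 to 0.039 without IgG replicate 1.

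**Figure D2:**
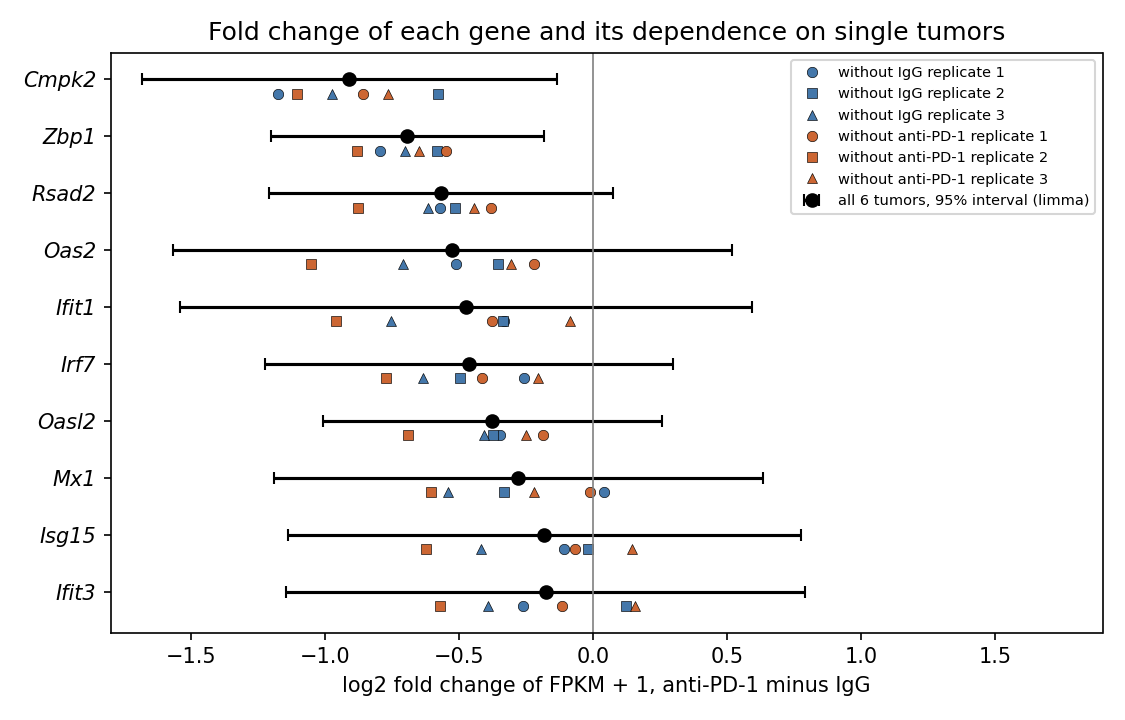
Log2 fold change of FPKM + 1 (anti-PD-1 minus IgG) of the 10 genes. Black points are estimates from all 6 tumors with 95% intervals (limma), and colored points leave out 1 tumor each. The intervals of Cmpk2 and Zbp1 did not include 0, and leaving out anti-PD-1 replicate 2 (orange squares) gave the lowest estimate for all genes but Cmpk2.

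The ligands of the pathway had few or no recovered reads. Of 20 type I and type III interferon genes, 12 were listed at 0 in all 6 tumors. A listed 0 need not mean a low level in these files, since Trex1, a broadly expressed gene that overlaps Atrip, was also listed at 0 in all 6 (named after its values were seen). For Ifnb1, which overlaps no other gene, a count of 0 allows a level of up to 0.156 to 0.182 FPKM (3 reads, by tumor, counting error only). Ifnb1, the interferon beta gene, had 4 reads in anti-PD-1 replicate 2, 1 read in anti-PD-1 replicate 3 and none in the other tumors. The epithelial interferon gene Ifnl3 had 8 reads in anti-PD-1 replicate 2 and none elsewhere, and it overlaps Samd4b on the other strand. The tumor with the most reads of both was also the one with the highest summed level of the 10 genes, and the tumor with the lowest sum held an Ifnb1 read too. Counts this low cannot rank the tumors, and a link between ligand reads and the 10 genes was not tested. Ifna11 had 5 reads in IgG replicate 3, and Ifne, Ifnk, Ifnz, Ifnab and Ifnl2 had 1 or 2 reads in any tumor where they were seen. None of the 20 reached the level needed for the test.

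Of the 9 receptors and transducers, 7 had a lower and 2 a higher mean in the anti-PD-1 group (49.2% of all tested genes lower). The 2 higher were the receptor chains Ifnar1 and Ifnar2, with log2 fold changes of 0.20 and 0.085 (limma adjusted p = 0.611 and 0.890). Jak1 read 28.9, 47.3 and 43.8 FPKM in the IgG tumors and 21.2, 18.9 and 20.9 FPKM in the anti-PD-1 tumors, which did not overlap (log2 fold change -0.91, SE 0.21, limma adjusted p = 0.344). Unlike the 10 genes, Jak1 had its lowest level in anti-PD-1 replicate 2. Tyk2 was at 5.21, 7.63 and 8.68 FPKM with IgG and at 5.16, 3.96 and 3.85 FPKM with anti-PD-1 (log2 fold change -0.60, SE 0.22, limma adjusted p = 0.370). Jak1 lies on chromosome 4 and Tyk2 on chromosome 9, the chromosomes whose genes were lower as a whole, and the part of this in either value was not tested. Stat2 and Irf9, whose products belong to the complex that binds the element, had log2 fold changes of -0.42 and -0.21 (limma adjusted p = 0.432 and 0.643). Over the list, 2 were lower and 0 higher at an unadjusted p under 0.05 (6.05% and 6.22% of all tested genes), with a median of -0.21.

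Among 15 sensors and adaptors of nucleic acid, 1 was lower and 0 were higher at an unadjusted p under 0.05, a share near that of all tested genes (6.05% lower and 6.22% higher), with a median log2 fold change of -0.043. The 1 was Ddx58 (RIG-I, a sensor of viral RNA that is itself interferon-stimulated, on chromosome 4), at 12.7, 22.2 and 16.6 FPKM with IgG and 7.41, 13.7 and 7.84 FPKM with anti-PD-1 (log2 fold change -0.78, SE 0.28, limma adjusted p = 0.370). Ddx58 followed the 10 genes in having anti-PD-1 replicate 2 highest of its group. Among 11 negative regulators 10 were tested, with a median of -0.087, and 1 was lower and 0 higher at the same threshold, again near the share of all tested genes (6.05% lower). This was Samhd1, which depletes the nucleotides needed for reverse transcription, at 12.8, 17.7 and 20.9 FPKM against 11.1, 12.9 and 8.88 FPKM (log2 fold change -0.59, SE 0.22, limma adjusted p = 0.378).

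A wider list of 50 other interferon-stimulated genes, also chosen with earlier results of these data known, was examined in the same tumors. Of the 50, 48 were tested. Of the 48, 39 had a lower and 9 a higher mean in the anti-PD-1 group, with a median log2 fold change of -0.27. At an unadjusted p under 0.05, 7 were lower and 0 higher (against 6.05% and 6.22% of all tested genes), and 5 did not overlap with the anti-PD-1 group lower (8.75%). The smallest p values among the lower genes were those of Helz2, Ifit2, Samd9l and Ddx58. Helz2, a helicase and coactivator, gave 7.21, 6.65 and 7.45 FPKM with IgG and 4.07, 5.47 and 3.72 FPKM with anti-PD-1 (log2 fold change -0.59, SE 0.17, limma adjusted p = 0.346). Ifit2, in the cluster of Ifit1 and Ifit3, was at 9.37, 12.5 and 6.09 FPKM against 4.40, 5.46 and 4.71 FPKM (log2 fold change -0.77, SE 0.25, limma adjusted p = 0.355). Thus Ifit2 did not overlap between the groups, while its neighbors Ifit1 and Ifit3 did. Samd9l, an antiviral and growth-restraining factor, had 17.3, 23.7 and 11.8 FPKM against 8.29, 11.9 and 5.63 FPKM (log2 fold change -0.95, SE 0.32, limma adjusted p = 0.357).

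The higher genes with the smallest p values were Ifitm3, Ifi35, Bst2 and Isg20, with log2 fold changes of 1.00, 0.50, 0.53 and 0.41 and limma adjusted p values of 0.434, 0.472, 0.566 and 0.631. Ifitm3, a membrane protein that blocks viral fusion, stood at 874, 352 and 268 FPKM in the IgG tumors and at 594, 1027 and 1078 FPKM in the anti-PD-1 tumors. Anti-PD-1 replicate 3, the lowest tumor for Isg15, Irf7, Ifit1, Ifit3 and Cmpk2, was thus the highest for Ifitm3. Bst2 (tetherin), which holds budding virus at the cell surface, showed 278, 154 and 114 FPKM against 185, 283 and 278 FPKM.

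**Figure D3:**
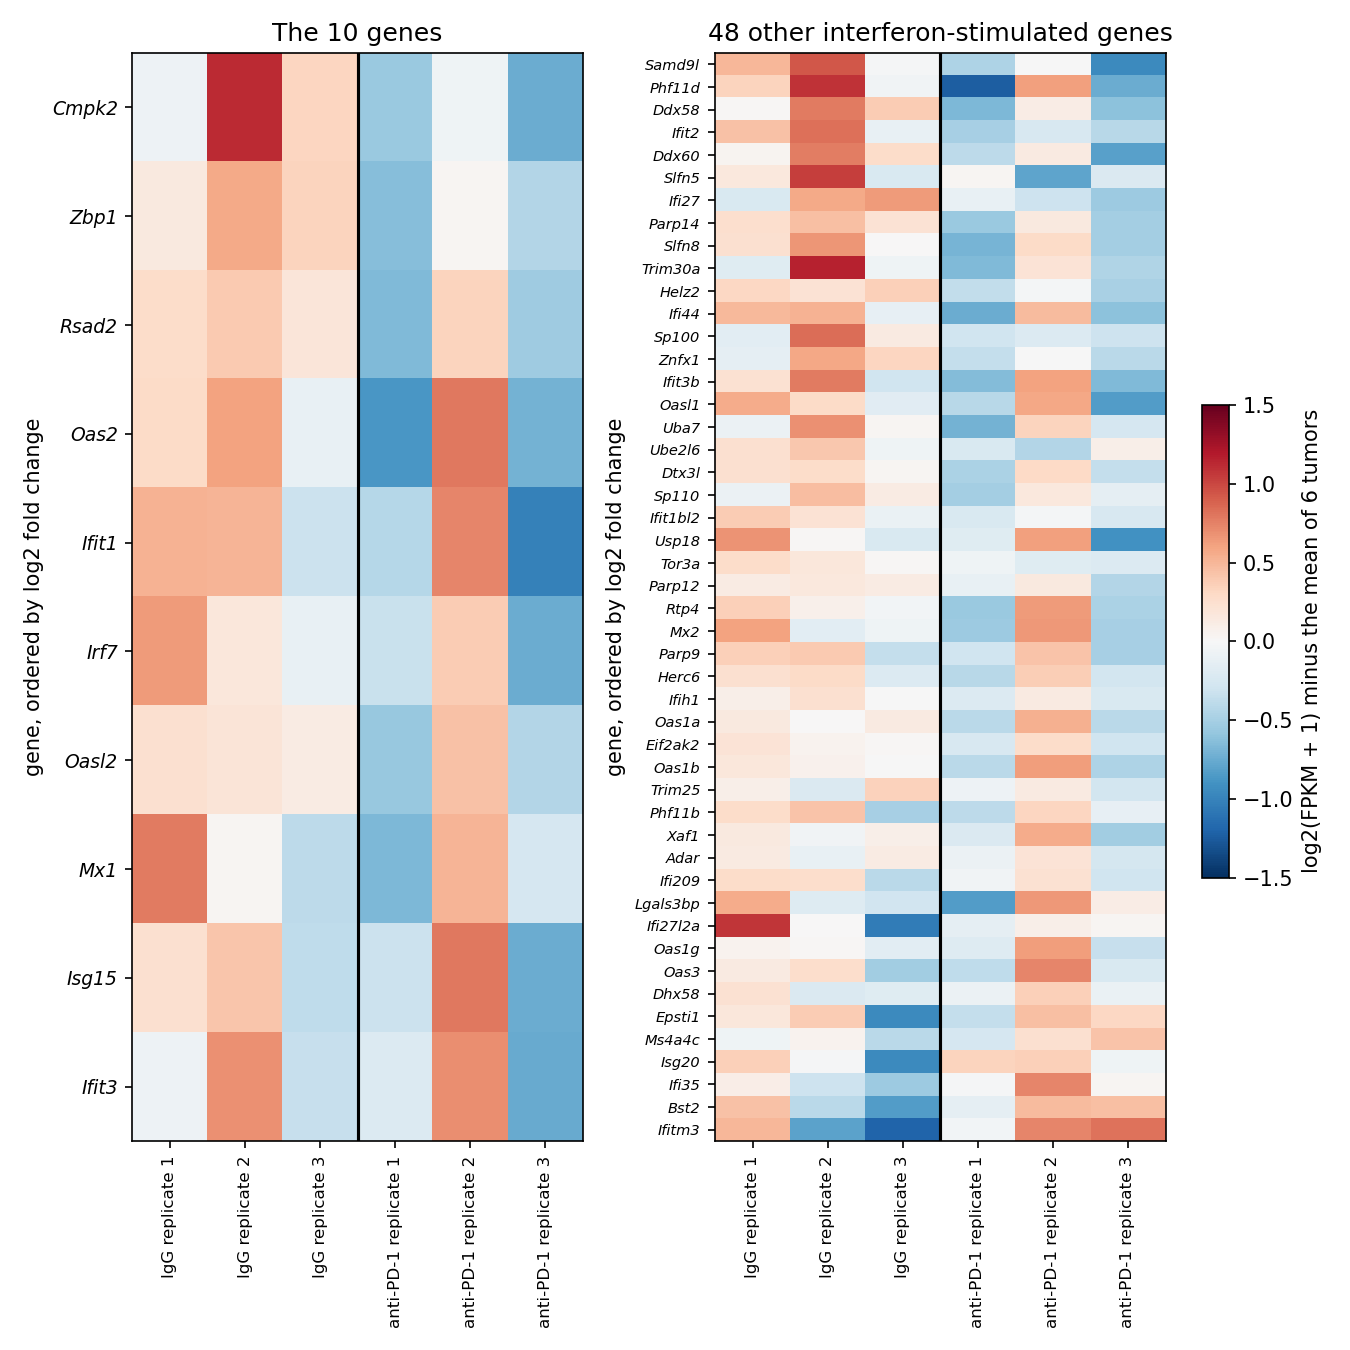
Log2(FPKM + 1) minus the mean of the 6 tumors for the 10 genes (left) and the 48 other tested interferon-stimulated genes (right), with genes in rows, ordered by log2 fold change, and tumors in columns. Red is above and blue below the gene's mean, with darker color farther from it. Most genes were blue in anti-PD-1 replicates 1 and 3 and red in anti-PD-1 replicate 2, while Ifitm3 and Bst2 were red in anti-PD-1 replicates 2 and 3.

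The genes most like the 10 were ranked by Pearson's r with their mean centered log2 level, over 6 tumors that share library and depth with both sides of the correlation, so r is a description. The highest 10 of all other tested genes were Gm26189, Pcgf1, Inpp5a, Gm37249, Ppp4r3a, Mrpl24, Slfn2, Ifi44, Ifih1 and Akr1e1, with r between 0.979 and 0.995. Of these, Ifi44 and Ifih1 were on the list of interferon-stimulated genes. Ifi44 had 17.3, 17.6 and 10.9 FPKM with IgG and 6.74, 17.0 and 7.51 FPKM with anti-PD-1, a wide range like that of the 10 genes. Pcgf1, a Polycomb ring finger gene, kept between 7.53 and 10.5 FPKM, and Gm26189, an snRNA gene, was at most 1.17 FPKM and listed at 0 in anti-PD-1 replicates 1 and 3. The 48 other interferon-stimulated genes had a median r of 0.77 with the 10, against 0.0074 for all other tested genes, and 21 of the 48 had an r over 0.8, against 3.38% of all. Ifitm3, with an r of -0.14, was the only 1 of the 48 below 0.

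Interferon-gamma response genes were placed beside the 10 genes because the responses overlap. Of 20 such genes, a list that also held Ifng and its receptor genes Ifngr1 and Ifngr2, 19 were tested. Their median log2 fold change was -0.39, 16 had a lower mean in the anti-PD-1 group (49.2% of all tested genes), and 2 were lower and 0 higher at an unadjusted p under 0.05 (6.05% and 6.22% of all tested genes). Iigp1, a GTPase of the parasite defense, was at 55.6, 219 and 125 FPKM with IgG and at 31.5, 29.1 and 36.1 FPKM with anti-PD-1 (log2 fold change -1.81, SE 0.45, limma adjusted p = 0.344). In contrast to the 10 genes, its level in anti-PD-1 replicate 2 was the lowest of the 6 tumors. The related GTPases Irgm2, Tgtp1 and Gbp7 had log2 fold changes of -0.72, -1.06 and -0.58 (limma adjusted p = 0.401, 0.492 and 0.494). The genes of the list with a higher mean were Ifngr1, Cxcl10 and Irgm1, with 0.16, 0.14 and 0.00051 (limma adjusted p = 0.842, 0.893 and 1.000). The value of Tgtp1 rested on IgG replicate 2 (20.7 FPKM, against 2.93 and 4.28 FPKM in the other IgG tumors) and was -0.31 without it. By tumor, 13 of the 19 genes were highest in IgG replicate 2 (20.6% of all tested genes) and 14 were lowest in anti-PD-1 replicate 1 (13.9%). Of the 48 other interferon-stimulated genes, 19 were highest in IgG replicate 2 and 19 in anti-PD-1 replicate 2, and the difference between the lists was not tested.

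Markers of immune cells differed by cell type in their order across the tumors. The summed level of 5 leukocyte markers was 35.3, 50.3 and 28.9 FPKM with IgG and 44.6, 29.8 and 41.9 FPKM with anti-PD-1. The sum of 10 macrophage markers was 535, 613 and 386 FPKM and 765, 420 and 812 FPKM in the same order. In the anti-PD-1 group both sums were lowest in replicate 2, the tumor with the highest level of the 10 genes, and the macrophage sum was highest in replicates 1 and 3. All 10 macrophage markers had a higher mean in the anti-PD-1 group, 1 of them (Cd68) at an unadjusted p under 0.05 (6.22% of all tested genes). Markers of T cells summed to 2.43, 6.53 and 2.95 FPKM with IgG and 2.31, 1.68 and 2.29 FPKM with anti-PD-1, and those of natural killer cells to 2.31, 7.30 and 3.59 FPKM with IgG and 1.78, 0.828 and 1.09 FPKM with anti-PD-1. Both sums were lower in every anti-PD-1 tumor than in every IgG tumor, as were 8.75% of all tested genes, but the T cell sums were separated by 2.31 against 2.43 FPKM only, and 1 of 9 T cell and 2 of 6 natural killer markers passed the filter on low values. Both sums were lowest in anti-PD-1 replicate 2. Neutrophil markers summed to 12.7, 6.00 and 2.91 FPKM with IgG and 11.4, 26.0 and 6.23 FPKM with anti-PD-1. Like the summed level of the 10 genes, this sum was highest in anti-PD-1 replicate 2, where S100a8 alone gave 21.1 FPKM. Only 3 of the 8 neutrophil markers passed the filter, and their median centered log2 level was highest in IgG replicate 1 (0.25, against 0.18 in anti-PD-1 replicate 2). Plasmacytoid dendritic cells are known as a rich source of interferon alpha, and 10 of their markers summed to 295, 204 and 167 FPKM with IgG and 201, 293 and 285 FPKM with anti-PD-1. Most of each sum was Bst2, which is itself interferon-stimulated. Of the 7 tested, 4 had a higher and 3 a lower mean in the anti-PD-1 group, with a median log2 fold change of 0.12, and 2 were lower (Ly6d at -2.68 and Tcf4 at -0.83) and 0 higher at an unadjusted p under 0.05 (6.05% and 6.22% of all tested genes). The defining marker Siglech lay between 0.134 and 1.60 FPKM. Dendritic cell markers summed to between 4.65 and 8.56 FPKM and B cell markers to at most 3.45 FPKM. The part of cell composition in the levels of the 10 genes was not tested. Among the tumors with much muscle RNA, 2 were high for the 10 genes (IgG replicate 2 and anti-PD-1 replicate 2) and 1 was low (anti-PD-1 replicate 1).

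**Figure D4:**
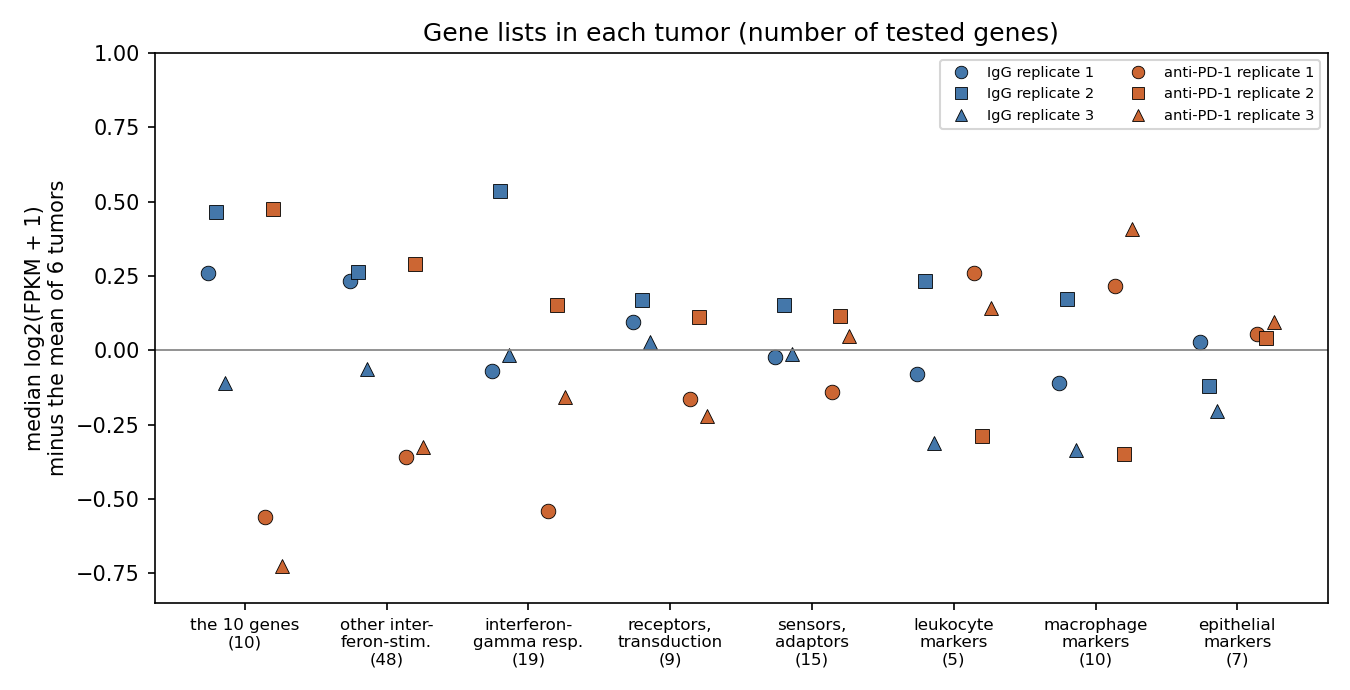
Median over the tested genes of each list of log2(FPKM + 1) minus the mean of the 6 tumors, by tumor, with the number of tested genes in brackets. The 10 genes ranged from -0.72 to 0.47 and the other interferon-stimulated genes from -0.36 to 0.29, with anti-PD-1 replicates 1 and 3 lowest in both, while the macrophage markers were highest in those 2 tumors.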

How the data were processed

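RNAseq of 6 tumors (3 IgG, 3 anti-PD-1) was analysed, grouped by the sample labels. Per the paper's methods and the submitters' processing notes, the authors used FastQC 0.11.9, Cutadapt 3.5, Bowtie2 2.4.1 on mm10 (Ensembl release 99), RSEM 1.3.1 and, for testing, DESeq2 1.36.0. The authors deposited FPKM values, 1 file per tumor, and how these were made is not given in the sources used here. FPKM times merged exon length came out as whole reads, within 0.1, for 97.0% to 97.3% of values above 0, from which reads were recovered, and 3 reads on 2 kb of exons equal 0.0586 to 0.0682 FPKM. Of 54532 gene IDs, 37 had no match in GENCODE M21.

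FPKM was divided by median-of-ratios factors (0.996 to 1.00), 1 was added and log2 taken. This understates changes of low genes. The 15070 genes averaging 0.5 FPKM or more were compared between groups by limma 3.58.1, run in R 4.3.3 (eBayes with trend, two-sided, Benjamini-Hochberg over all tested genes). Permutation tests were two-sided and exact. Scripts were tested on simulated data. Python 3.11.15, numpy 2.4.6, pandas 2.3.3 and scipy 1.17.1 were used.

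The 10 genes and all lists were chosen with earlier results of these data known. Named were the 10 genes, type I and III interferons above 0, Ifnar1, Ifnar2, Stat2, Irf9, other pathway genes at an unadjusted p under 0.05, the 4 smallest p values per direction among other interferon-stimulated and interferon-gamma genes, and the 10 genes most like the members, beside cell type markers and those marked as named afterwards. Single cell type markers were picked after their values were seen. Alternatives were another pseudocount, other filters, FPKM as deposited, quantile normalization, no trend, a replicate block, voom on recovered reads, and leaving out each tumor. Reads shared between overlapping genes or paralogs could not be separated. An item of the pathway that the naming rule covers is not reported here. Other assays of the study were not analysed here.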

Additional observations from a re-analysis of the deposited data

How the results depend on the processing

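Across the 8 alternatives that kept all 6 tumors, the 10 genes kept a lower mean in the anti-PD-1 group, 2 of them at an unadjusted p under 0.05, and no gene passed an adjusted p of 0.05. Leaving out 1 tumor at a time moved the values. The number of genes at an adjusted p under 0.05 ranged from 0 to 12 (12 without IgG replicate 1, and 1 each when IgG replicate 3 or anti-PD-1 replicate 2 was left out), that of genes lower at an unadjusted p under 0.05 from 448 to 1417, and that of higher genes from 516 to 1271. Genes whose groups did not overlap ranged from 3439 to 5360 (2721 with all tumors), since fewer tumors overlap less often by construction. Of the 10 genes, 0 to 7 were at an unadjusted p under 0.05, and of the other interferon-stimulated genes 1 to 16. Both counts were highest without anti-PD-1 replicate 2 and lowest without IgG replicate 2. For the 10 genes the count was also 0 without anti-PD-1 replicate 1. The medians of the log2 fold changes ranged from -0.82 to -0.24 and from -0.47 to -0.13. Direction reversed for Ifit3 (0.12 without IgG replicate 2, 0.16 without anti-PD-1 replicate 3), Isg15 (0.14 without anti-PD-1 replicate 3) and Mx1 (0.039 without IgG replicate 1), as their fold changes ranged from -0.57 to 0.16, from -0.62 to 0.14 and from -0.60 to 0.039.

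Over all tested genes, same-numbered tumors did not deviate together (r = -0.16, 0.0051 and 0.19 for replicates 1 to 3), so the numbers were not taken as pairs. The mean centered level of the 10 genes was nonetheless highest in replicate 2 and lowest in replicate 3 of both groups. With the replicate number as a block, 0 genes passed an adjusted p of 0.05, 807 were lower and 919 higher at an unadjusted p under 0.05, and 2 of the 10 genes and 10 of the other interferon-stimulated genes were among the lower. The unadjusted limma p of Cmpk2 and Zbp1 was then 0.0062 and 0.0068, against 0.0273 and 0.0146 without the block (limma adjusted p = 0.395 for both with it). Of the 10 genes, only Mx1 had a larger unadjusted limma p with the block (0.514 against 0.495). With 3 tumors per group, the 95% intervals of 8 of the 10 genes included 0, and those of Cmpk2 and Zbp1 did not. Each of the 10 genes had at least 254 reads per tumor, whereas none of the 20 type I and III interferon genes had more than 8.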
